A study of Mus musculus with 4 samples.

Results

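The EGF family of signaling genes was examined in cultured ureters through 7 ligand genes, *Ereg*, *Areg*, *Epgn*, *Hbegf*, *Btc*, *Tgfa* and *Egf*, and 3 receptor genes, *Egfr*, *Erbb2* and *Erbb3*. These 10 genes were taken by name, with no threshold on their values, from the 29924 gene names on the array. Earlier results of these data were known when they were chosen. They were measured by 12 of the 39429 probes of the array. All 12 probes were well above background in all 8 channels, so that the 10 genes entered every comparison. RNA came from pools of ureters that were explanted at P0 from NMRI outbred mice and cultured for 8 days with the solvent DMSO or with 2 µM of the SHH signaling agonist purmorphamine. *Pparg-cKO* ureters (*Pax2-cre/+;Pparg fl/fl*) were compared with ureters of cre-negative littermates that carried floxed *Pparg* alleles, and both genotypes received DMSO or purmorphamine. The *Pax2-cre* line recombines in the nephric duct, the ureteric epithelium and the renal collecting duct system and removes exons 2 and 3 of *Pparg*, and the truncated protein left behind has lost its function. Each of the 4 groups had 1 male pool (replicate 1) and 1 female pool (replicate 2), the DMSO and the purmorphamine pool of a genotype and sex shared an array, and the dyes were exchanged between the sexes. The number of ureters per pool was not given in the sources used here.

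In this family, the ligands are made as membrane-bound precursors that proteases release from the cell surface, and they bind receptor tyrosine kinases of the ERBB group. EGFR binds all of the ligands studied here, ERBB2 has no ligand of its own and pairs with the other receptors, and ERBB3 binds neuregulins and signals mainly as a partner of ERBB2. The RAS and ERK cascade lies downstream, and in urothelial cells EGFR signaling is known for its part in proliferation and wound repair.

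The labels were checked by genes outside the family. The *Pparg* probe, which lies in the 3′ part of the gene outside the deleted exons and so checks nothing about the deletion, had log2 intensities of 14.79 (male) and 15.31 (female) in control and 15.55 and 15.58 in *Pparg-cKO* pools with DMSO, and 15.10 and 15.18 against 15.95 and 16.10 with purmorphamine. *Shh* differed between *Pparg-cKO* and control ureters by a log2 value of -2.93 with DMSO (SE 0.23, adjusted p = 0.00219) and -2.12 with purmorphamine (adjusted p = 0.00961). *Ptch1*, a target gene of SHH signaling, was higher with purmorphamine by 1.62 in *Pparg-cKO* ureters (adjusted p = 0.014) and by 1.00 in control ureters (adjusted p = 0.0428). All p-values are from limma with Benjamini-Hochberg adjustment over 20229 genes unless named as unadjusted. The labels do not say whether the pools of a group came from separate cultures, so these p-values measure the spread between pools. The pools of a group also differ in sex and dye, which cannot be told apart from each other or from other differences between pools.

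Of the 7 ligands, *Ereg* and *Areg* fell with purmorphamine in both genotypes. Their genes lie beside each other on mouse chromosome 5 between those of *Epgn* and *Btc*. In mm9, the build of the array's annotation, the probe of *Epgn* lies at chr5:91464119-91464178, that of *Ereg* at chr5:91522553-91522612, that of *Areg* at chr5:91570090-91570149 and that of *Btc* at chr5:91786948-91787007, the last on the minus strand. The 60-base probe that carries the *Areg* values is shown because each *Areg* value below rests on it alone. The second sequence is the *Areg* promoter of RefSeq (GRCm38.p6, chr5:91139349-91139648, plus strand, 250 bases before to 50 bases after the start), in which capitals mark a full cAMP response element and, after it, a TATA box.
Areg probe: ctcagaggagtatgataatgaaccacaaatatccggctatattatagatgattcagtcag
Areg promoter: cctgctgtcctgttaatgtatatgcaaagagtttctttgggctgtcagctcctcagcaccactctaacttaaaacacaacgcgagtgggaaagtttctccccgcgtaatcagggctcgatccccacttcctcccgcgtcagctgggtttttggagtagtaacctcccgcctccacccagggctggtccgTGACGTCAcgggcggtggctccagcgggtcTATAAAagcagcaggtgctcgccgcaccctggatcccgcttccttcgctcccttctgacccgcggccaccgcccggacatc

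Promoters were found for 7 of the 10 genes in the RefSeq set of 32851 promoters of 300 bases, and they were searched on both strands for 5 motifs. The set held no promoter of *Ereg*, *Hbegf* or *Erbb3*, so nothing is known here about motifs in theirs. The full cAMP response element TGACGTCA was in 1.79% of all promoters and, among the 7 genes, in that of *Areg*, where it began 61 bases before the start. The TATA box TATAAA was in 13.6% of all promoters and in those of *Areg* and *Epgn*, 31 and 86 bases before the start. The AP-1 site TGANTCA (7.81% of all promoters), the GLI site GACCACCCA (0.253%) and the nuclear receptor half-site AGGTCA (16.3%) had no match in the promoters of these 7 genes. A match of letters is a description of the sequence and no measure of binding.

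*Ereg* encodes epiregulin, a ligand of EGFR and ERBB4. With DMSO its log2 intensity was 12.28 (male pool) and 12.08 (female pool) in control ureters, and 12.09 and 11.91 in *Pparg-cKO* ureters. With purmorphamine it was 9.93 and 7.85 in the male and female control pools and 7.96 and 7.74 in the *Pparg-cKO* pools. All 4 DMSO pools lay above all 4 purmorphamine pools, and the male control pool was the highest of the latter. The fitted difference was -4.15 in *Pparg-cKO* ureters (SE 0.43, adjusted p = 0.0191), a 17.8-fold decrease, with -4.14 between the male pools and -4.17 between the female pools. In control ureters it was -3.29 (SE 0.43, adjusted p = 0.046), a 9.8-fold decrease, with -2.35 between the male pools and -4.24 between the female pools. The arrays of control ureters differed more from each other than those of *Pparg-cKO* ureters, and without the female control array (replicate 2) the difference in control ureters was -2.35 with an adjusted p of 0.0788. By group mean the order was control with DMSO, *Pparg-cKO* with DMSO, control with purmorphamine and *Pparg-cKO* with purmorphamine, and the pools overlapped between the groups with DMSO and between those with purmorphamine.

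*Areg* encodes amphiregulin, a ligand of EGFR. Its log2 intensity was 11.21 and 10.90 in the male and female control pools with DMSO, and 11.45 and 10.97 in the *Pparg-cKO* pools with DMSO. With purmorphamine it was 9.26 and 8.53 in the control pools and 9.42 and 9.39 in the *Pparg-cKO* pools. As for *Ereg*, the DMSO pools lay above the purmorphamine pools without overlap. The difference was -1.80 in *Pparg-cKO* ureters (SE 0.17, adjusted p = 0.0164) and -2.16 in control ureters (SE 0.17, adjusted p = 0.0203), decreases of 3.49-fold and 4.47-fold. Without the male or the female control array, the *Areg* difference in control ureters was -2.37 or -1.95 with an adjusted p of 0.0818 or 0.0908.

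The calls of *Ereg* and *Areg* were 2 of the 10 genes in each genotype, and both were decreases, whereas 3.10% of all genes tested were called lower and 2.02% higher with purmorphamine in *Pparg-cKO* ureters, and 1.12% and 0.405% in control ureters. By the rule of the study's methods (a fold change of at least 1.5 on both arrays and an intensity above 100, with no test), *Ereg* and *Areg* were also the members that were lower in both genotypes, beside 4.79% of the genes with sufficient intensity in *Pparg-cKO* and 3.69% in control ureters. Both calls depended on how the signals were processed. An alternative took the scanner software's processed signals, scaled by channel with a floor of 15, in place of the normexp correction and loess. Which of these steps mattered was not tested. The differences were then at least as large (*Ereg* -4.63 and -3.51, *Areg* -1.87 and -2.31 in *Pparg-cKO* and control ureters). However, 0 genes passed limma's adjusted threshold in either genotype, and the adjusted p was 0.118 and 0.179 for *Ereg* and 0.103 and 0.149 for *Areg*. With these signals *Areg*, *Ereg* and *Hbegf* had an unadjusted p under 0.05 in both genotypes and *Epgn* in *Pparg-cKO* ureters. With no filter on dim probes, which adds probes to the table, the adjusted p was 0.055 and 0.109 for *Ereg* and 0.0446 and 0.0607 for *Areg*.

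**Figure D1:**
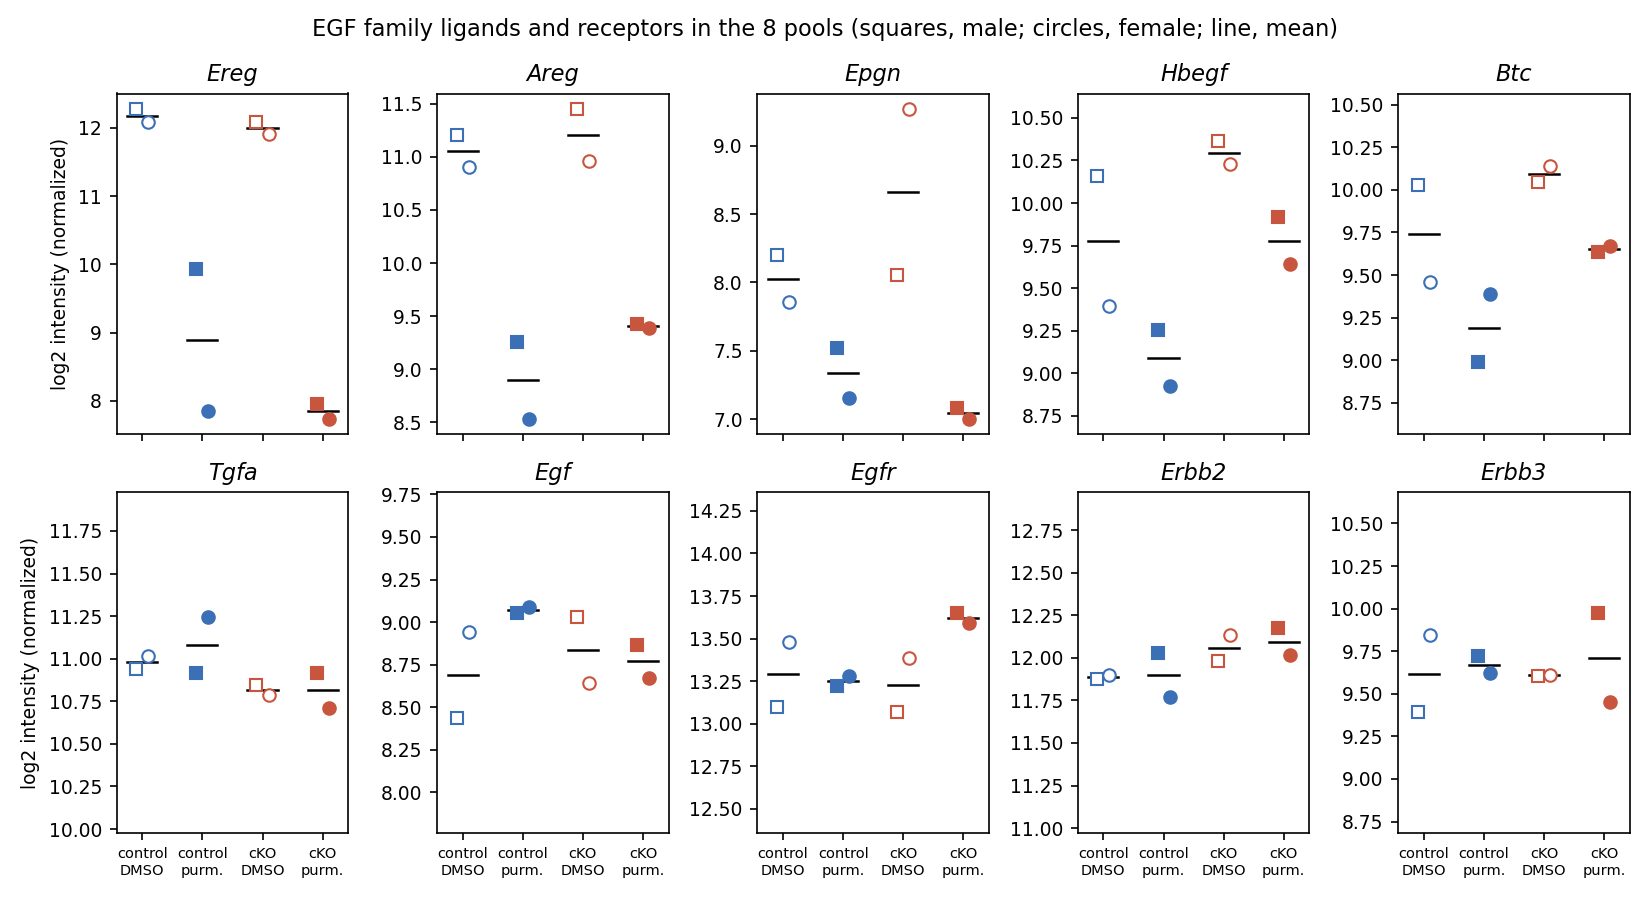
Normalized log2 intensity (y axis, a range of its own in each panel that spans at least 2 units) of the 10 genes in the 4 groups, with purmorphamine abbreviated as purm. and *Pparg-cKO* as cKO. Squares are male pools, circles are female pools, filled symbols are purmorphamine and lines are the means of 2 pools. The DMSO pools of *Ereg* (11.91 to 12.28) lie above its purmorphamine pools (7.74 to 9.93).

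*Epgn* encodes epigen, another ligand of EGFR. Its log2 intensity was 8.20 and 7.86 in the male and female control pools with DMSO and 7.52 and 7.15 with purmorphamine. In *Pparg-cKO* pools it was 8.05 and 9.27 with DMSO and 7.08 and 7.005 with purmorphamine. The female *Pparg-cKO* pool with DMSO was thus the highest of all 8 pools. The difference with purmorphamine was -1.62 in *Pparg-cKO* ureters (SE 0.30, adjusted p = 0.0539, -0.97 for the male pools and -2.26 for the female pools) and -0.69 in control ureters (SE 0.30, adjusted p = 0.30), and neither passed the test. Without the male *Pparg-cKO* array the first was -2.26, and without the female array it was -0.97. The same female pool was the highest for squamous epithelium markers, whose 7 genes summed to a linear intensity of 163000 there, against 10600 in the male *Pparg-cKO* pool with DMSO and 7320 to 8380 in the control pools with DMSO. The part of these markers in the *Epgn* value was not tested.

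*Hbegf*, whose product is a heparin-binding ligand of EGFR and ERBB4, and *Btc*, which encodes betacellulin, had smaller differences. *Hbegf* had log2 intensities of 10.16 and 9.39 in the male and female control pools with DMSO and 9.25 and 8.92 with purmorphamine, and 10.36 and 10.23 against 9.92 and 9.64 in *Pparg-cKO* pools. Within each array the purmorphamine pool was the lower one. The differences were -0.52 in *Pparg-cKO* (SE 0.14, adjusted p = 0.115) and -0.69 in control ureters (SE 0.14, adjusted p = 0.0976), and neither passed the test. *Btc* had log2 intensities of 10.03 and 9.46 in control pools with DMSO, 8.99 and 9.39 in control pools with purmorphamine, 10.05 and 10.14 in *Pparg-cKO* pools with DMSO and 9.64 and 9.67 in *Pparg-cKO* pools with purmorphamine. Its differences were -0.44 (SE 0.24, adjusted p = 0.369) and -0.55 (SE 0.24, adjusted p = 0.291) in *Pparg-cKO* and control ureters. Counted by sign alone, 5 of the 10 genes (*Ereg*, *Areg*, *Epgn*, *Hbegf* and *Btc*) were lower with purmorphamine on all 4 arrays, as were 20.5% of all genes tested.

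*Tgfa* and *Egf*, the genes of transforming growth factor alpha and of EGF itself, did not pass the test in either genotype. *Tgfa* lay between 10.71 and 11.24 in all 8 pools, and its differences with purmorphamine were 0.10 in control (SE 0.12) and -0.00 in *Pparg-cKO* ureters (SE 0.12). *Egf* had log2 intensities of 8.43 and 8.95 in the male and female control pools with DMSO and 9.06 and 9.09 with purmorphamine, a difference of 0.38 (SE 0.15, adjusted p = 0.256). In *Pparg-cKO* pools *Egf* was 9.03 and 8.64 with DMSO and 8.87 and 8.67 with purmorphamine, a difference of -0.07 (SE 0.15). For both genes, the pools with DMSO and with purmorphamine overlapped in *Pparg-cKO* ureters.

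**Figure D2:**
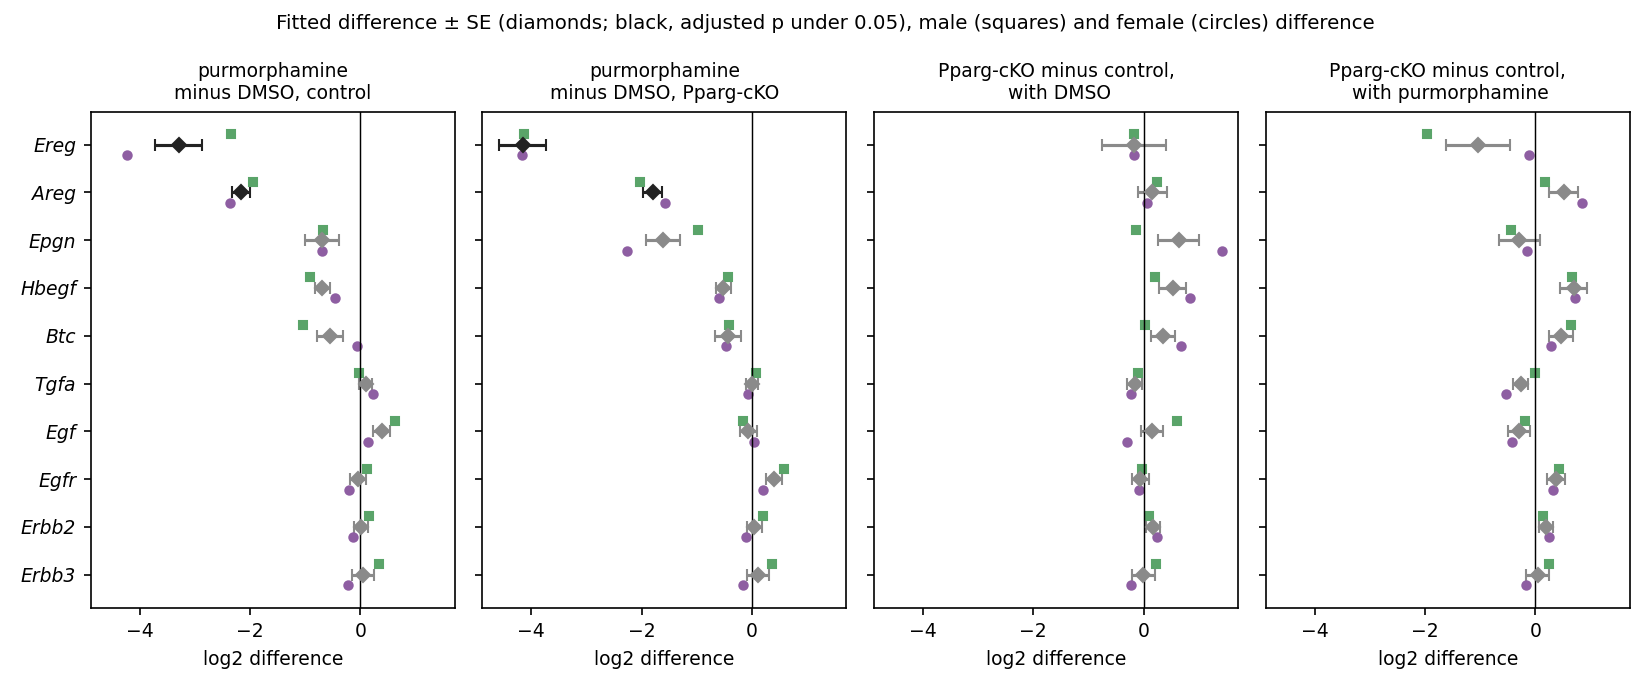
Differences in log2 intensity (x axis, the same scale in each panel) of the 10 genes in the 4 comparisons. Diamonds are fitted differences with SE as bars, black where the adjusted p was under 0.05, and squares and circles are the differences between male pools and between female pools. *Ereg* and *Areg* are black in both purmorphamine panels, and no gene is black in the genotype panels.

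The receptor genes did not pass the test in any comparison. *Egfr* was bright, with log2 intensities of 13.10 and 13.48 in the male and female control pools with DMSO, 13.22 and 13.28 in control pools with purmorphamine, 13.07 and 13.39 in *Pparg-cKO* pools with DMSO and 13.65 and 13.59 in *Pparg-cKO* pools with purmorphamine. The last group was the highest, and the other groups overlapped. The difference with purmorphamine was 0.39 in *Pparg-cKO* (SE 0.15, adjusted p = 0.21) and -0.04 in control ureters (SE 0.15, adjusted p = 0.925). *Egfr* has 3 probes, of which the brightest belongs to another transcript accession than the other 2. In *Pparg-cKO* ureters the other probes gave 0.11 (SE 0.15) and 0.24 (SE 0.20) with purmorphamine, and in control ureters -0.26 (SE 0.15) and -0.29 (SE 0.20), so that the 3 probes shared their sign within each genotype. *Erbb2* lay between 11.77 and 12.17 and *Erbb3* between 9.39 and 9.98 in the 8 pools. Their differences with purmorphamine were 0.01 and 0.05 in control ureters and 0.04 and 0.10 in *Pparg-cKO* ureters, with SE of 0.13 for *Erbb2* and 0.20 for *Erbb3*, and the pools of all neighboring groups overlapped.

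Loss of *Pparg* by itself gave no call among the 10 genes. With DMSO, 0 of the 10 passed at an unadjusted p of 0.05, and their differences ran from -0.18 (*Ereg*, SE 0.57) to 0.64 (*Epgn*, SE 0.37, adjusted p = 0.503). Of the 20229 genes, 1639 were higher and 1563 lower at that unadjusted p, and 2.00% were called higher and 1.93% lower after adjustment. A count of 0 among only 10 genes cannot be told apart from these shares. For *Epgn* the difference was 1.41 between the female pools and -0.15 between the male pools. With purmorphamine, 1.26% of all genes were called higher and 1.87% lower. Among the members, each by its brightest probe, *Hbegf* alone had an unadjusted limma p under 0.05. So had 1347 genes that were higher and 1784 that were lower among all 20229, so that 1 of 10 members was no more than the share of all genes. *Hbegf* was higher in *Pparg-cKO* ureters by 0.69 (SE 0.25, adjusted p = 0.24), with 0.66 between the male and 0.71 between the female pools, and the corresponding difference with DMSO was 0.52 (SE 0.25, adjusted p = 0.387). *Ereg* differed by -1.04 with purmorphamine (SE 0.57, adjusted p = 0.478), with -1.97 between the male and -0.11 between the female pools, and *Areg* by 0.51 (SE 0.26, adjusted p = 0.419). By the methods' rule, *Hbegf* and *Egfr* were higher in *Pparg-cKO* ureters with purmorphamine, beside 3.06% of the genes with sufficient intensity, and 0 members met the rule with DMSO. The *Egfr* entry rested on a probe, not the brightest, whose limma difference was 0.52 (SE 0.17, unadjusted p = 0.0214). The brightest probe had 0.37 (SE 0.16) and the remaining probe 0.22 (SE 0.17).

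Whether purmorphamine acted differently in the genotypes was tested by the difference of their responses. This gave 0% of all genes called higher and 0% called lower with limma, with 319 and 350 genes at an unadjusted p under 0.05, and no member was among these. For *Ereg* the difference of the responses was -0.86 (SE 0.61), for *Areg* 0.36 (SE 0.24), for *Epgn* -0.93 (SE 0.43) and for *Egfr* 0.43 (SE 0.21), each with an adjusted p of 1.00. At 2 arrays per genotype these data do not show that the responses were alike.

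The other genes of the pathway were taken from lists drawn up by function. Among 11 ERK response genes, which are induced when ERK is active, 5 were lower with purmorphamine in *Pparg-cKO* ureters (*Etv4* -1.62, *Fosl1* -1.31, *Phlda1* -1.14, *Fos* -0.92 and *Etv5* -0.68) and 3 in control ureters (*Etv4* -1.59, *Fosl1* -1.37 and *Etv5* -0.82). *Etv4* and *Etv5* encode ETS transcription factors, *Fos* and *Fosl1* subunits of the AP-1 transcription factor. The median of the list was -0.68 in *Pparg-cKO* and -0.82 in control ureters, beside -0.00 and 0.02 over all genes, and 10 of the 11 genes were below 0 in each genotype. Among 14 feedback inhibitors of the pathway, *Errfi1*, whose product binds and inhibits EGFR, fell by 1.25 in *Pparg-cKO* (SE 0.11, adjusted p = 0.016) and by 1.37 in control ureters (SE 0.11, adjusted p = 0.0223). *Dusp6*, the gene of an ERK phosphatase, fell by 1.18 (SE 0.11, adjusted p = 0.0164) and by 1.25 (SE 0.11, adjusted p = 0.0266). The medians of the feedback inhibitors were -0.20 and -0.31. With the processed signals these calls were lost with all others of the purmorphamine comparisons, whereas the medians of the ERK response genes were -0.69 and -0.81. With no filter on dim probes, 1 ERK response gene and both feedback inhibitors were called in *Pparg-cKO* ureters and 0 of either list in control ureters. Without the female *Pparg-cKO* array 0 genes of either list were called in *Pparg-cKO* ureters, without the male array 3 ERK response genes and both feedback inhibitors, and without either control array 0 of them in control ureters.

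The lists of genes that release the ligands and carry the signal had medians near that of all genes. Of 16 signal transducers from *Grb2* to *Mapk3*, 0 were called with purmorphamine, with medians of 0.05 in *Pparg-cKO* and 0.10 in control ureters, and the 4 genes for ligand shedding (*Adam10*, *Adam17*, *Rhbdf1* and *Rhbdf2*) had 0 calls with limma (1 and 0 higher at an unadjusted p under 0.05) and medians of -0.00 and 0.04. At an unadjusted p under 0.05, the counts of lower genes in the ERK response list were 10 and 10 of 11 in *Pparg-cKO* and control ureters, beside 2503 and 1989 lower of all 20229 genes, and those of the signal transducers were 2 and 1 higher and 0 and 1 lower of 16. Of the neuregulins, the ligands of ERBB3 and ERBB4, *Nrg1* had differences with purmorphamine of -1.10 (SE 0.20, adjusted p = 0.0507) and -0.99 (SE 0.20, adjusted p = 0.094) in *Pparg-cKO* and control ureters, and *Nrg2* of 0.56 (SE 0.16) and 0.74 (SE 0.16). *Erbb4* was well above background in 3 of 8 channels, all with DMSO, and entered the test only through the *Pparg-cKO* pools with DMSO. Its differences of -1.18 (SE 0.23, adjusted p = 0.0604) and -0.40 (SE 0.23, adjusted p = 0.433) run down to background, so their size is uncertain. *Nrg3* was well above background in 0 channels. *Nrg4* was lower in *Pparg-cKO* ureters with DMSO, where neither pool was well above background, by at least 2.89-fold (adjusted p = 0.0051). With purmorphamine, where 1 of 2 *Pparg-cKO* pools was well above background, it was lower by 1.81 (SE 0.17, adjusted p = 0.00729). The size of this value is uncertain, because the other pool was not well above background. *Nrg4* thus entered the test only through the control groups, where it was high. *Dusp4*, which encodes another phosphatase of the ERK pathway, was lower in *Pparg-cKO* ureters by 1.04 with DMSO (SE 0.20, adjusted p = 0.0426) and by 1.03 with purmorphamine (SE 0.20, adjusted p just under the threshold). Without the male or the female control array, the adjusted p with DMSO was 0.0706 or 0.0758 for *Nrg4* and 0.212 or 0.2 for *Dusp4*, and with purmorphamine 0.0988 or 0.101 for *Nrg4* and 0.251 or 0.23 for *Dusp4*.

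**Figure D3:**
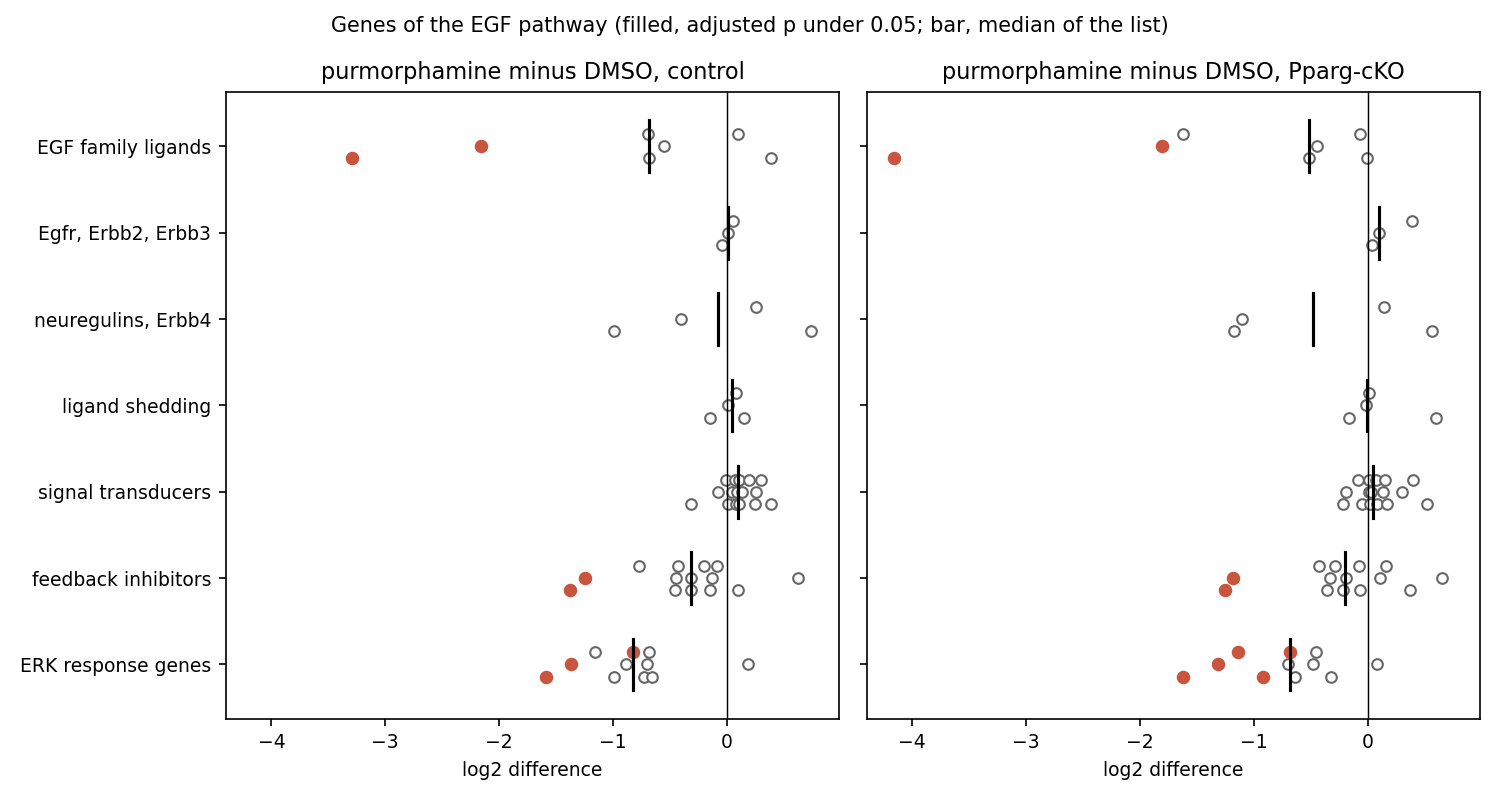
Differences in log2 intensity between purmorphamine and DMSO (x axis) for the genes of 7 lists (y axis) in control (left) and *Pparg-cKO* ureters (right). Each circle is a gene, filled where the adjusted p was under 0.05, and bars are medians of the lists. Filled circles stand among the ligands, the feedback inhibitors and the ERK response genes, and the median of the ERK response genes lies at -0.82 and -0.68.

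By a rule of likeness, the 3 genes with the highest Pearson's r with *Ereg* over the 8 pools were *Chl1* (0.998), *Traf1* (0.989) and *Tnfsf11* (0.987). For *Areg* they were *Errfi1* (0.992), a probe with no gene name (0.991) and *Socs1* (0.991). The 8 pools share the treatment split that sets these values apart, and pools on 1 array share their hybridization, so the correlations are descriptions.

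The neighbors of the ligand cluster on chromosome 5, examined after their values were seen, are shown by RefSeq order (GRCm38.p6). On the side of *Btc*, *Parm1*, *Rchy1* and *Odaph* had differences with purmorphamine between -0.11 and 0.74 in both genotypes, with adjusted p of 0.0797 or more. On the side of *Epgn*, *Mthfd2l* had -0.18 and -0.11 in *Pparg-cKO* and control ureters. Beyond it lie genes of neutrophil-attracting chemokines, of which *Cxcl1* fell by 2.18 (SE 0.11, adjusted p = 0.00981) and 2.19 (SE 0.11, adjusted p = 0.0113) and *Cxcl2* had -1.05 (SE 0.34, adjusted p = 0.166) and -1.40 (SE 0.34, adjusted p = 0.127). *Mthfd2l* thus lay between genes with lower values on both of its sides.

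**Figure D4:**
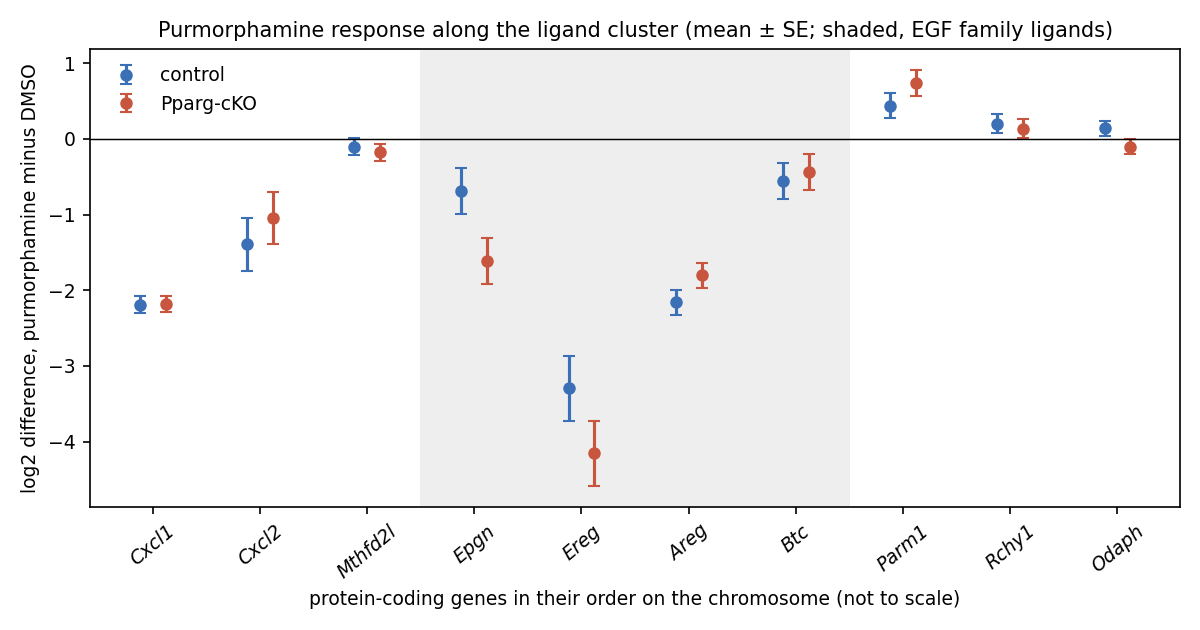
Difference in log2 intensity between purmorphamine and DMSO (y axis, fitted value with SE) for 10 protein-coding genes in the order in which they lie on chromosome 5 (x axis, not to scale), in control and *Pparg-cKO* ureters. Shading marks the 4 EGF family ligands. *Cxcl1* and *Cxcl2* lie below 0 outside the shading, and *Mthfd2l*, *Rchy1* and *Odaph* lie between -0.18 and 0.20.

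Markers of several cell types differed with the same treatment. In these bulk samples, fewer cells of a type and less RNA per cell cannot be told apart. All 6 leukocyte markers were below 0 with purmorphamine in both genotypes, *Adgre1* fell by 1.06 in *Pparg-cKO* ureters (adjusted p = 0.0364), and *Cd14* fell by 0.66 (adjusted p = 0.0467) and by 0.93 (adjusted p = 0.0434) in *Pparg-cKO* and control ureters. Their summed linear intensity was 172000 to 213000 in control and 173000 to 205000 in *Pparg-cKO* pools with DMSO, and 114000 to 157000 and 131000 to 136000 with purmorphamine. Of the 4 markers of basal urothelium, *Krt15* fell in both genotypes (by 1.40 and 1.67 in *Pparg-cKO* and control ureters), and their sum was 157000 to 182000 and 172000 to 264000 with DMSO and 122000 to 146000 and 84200 to 110000 with purmorphamine in control and *Pparg-cKO* pools. Of the 5 superficial cell markers, *Upk1a* and *Upk1b* rose in both genotypes, and *Krt20* and *Upk2* also rose in *Pparg-cKO* ureters, with a summed intensity of 168000 to 214000 and 105000 to 111000 with DMSO and 299000 to 365000 and 207000 to 256000 with purmorphamine. The 6 markers listed for the urothelium as a whole summed to 236000 to 254000 with DMSO and 243000 to 263000 with purmorphamine. Of these, *Epcam* fell in both genotypes and *Grhl3* rose by 0.75 in *Pparg-cKO* ureters. The study found GRHL3 protein in luminal cells of fetal ureters, so that *Grhl3* may not mark all layers. The part of these cells in the *Ereg* and *Areg* values was not tested.

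The remaining marker lists differed in their course. Of the 7 squamous epithelium markers, 2 fell in *Pparg-cKO* ureters and 0 were called in control ureters, where their median was 0.17. The medians of the mesenchyme, smooth muscle and endothelium markers were 0.50, 0.82 and 0.88 in *Pparg-cKO* and 0.43, 0.75 and 1.07 in control ureters. Of the 6 mesenchyme markers, 5 were above 0 in each genotype, whereas *Aldh1a2* had -0.36 in *Pparg-cKO* and -0.56 in control ureters. Calls were among the endothelium markers (*Tek* in both genotypes and *Cdh5* in *Pparg-cKO*). The 3 fat cell markers had medians of -1.24 and -0.25 with 0 calls, and their sums went opposite ways in the sexes. From DMSO to purmorphamine, the sum in *Pparg-cKO* ureters went from 80300 to 17300 (male) and from 63500 to 86000 (female). In control ureters it went from 135000 to 143000 (male) and from 176000 to 118000 (female). Kidney tubule markers were called in *Pparg-cKO* ureters, where *Umod* and *Slc12a1* were lower with purmorphamine. *Slc12a1* was well above background in 2 of 8 channels, both *Pparg-cKO* with DMSO. It thus entered the test only through the group where it was high, and its decrease of at least 2.34-fold is a bound. The summed intensity of these markers was 942 to 1120 in *Pparg-cKO* pools with DMSO and 362 to 580 in all other groups. The lower sums include values near background, as *Lrp2* and *Umod* were well above it in 4 and 5 of 8 channels.

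**Figure D5:**
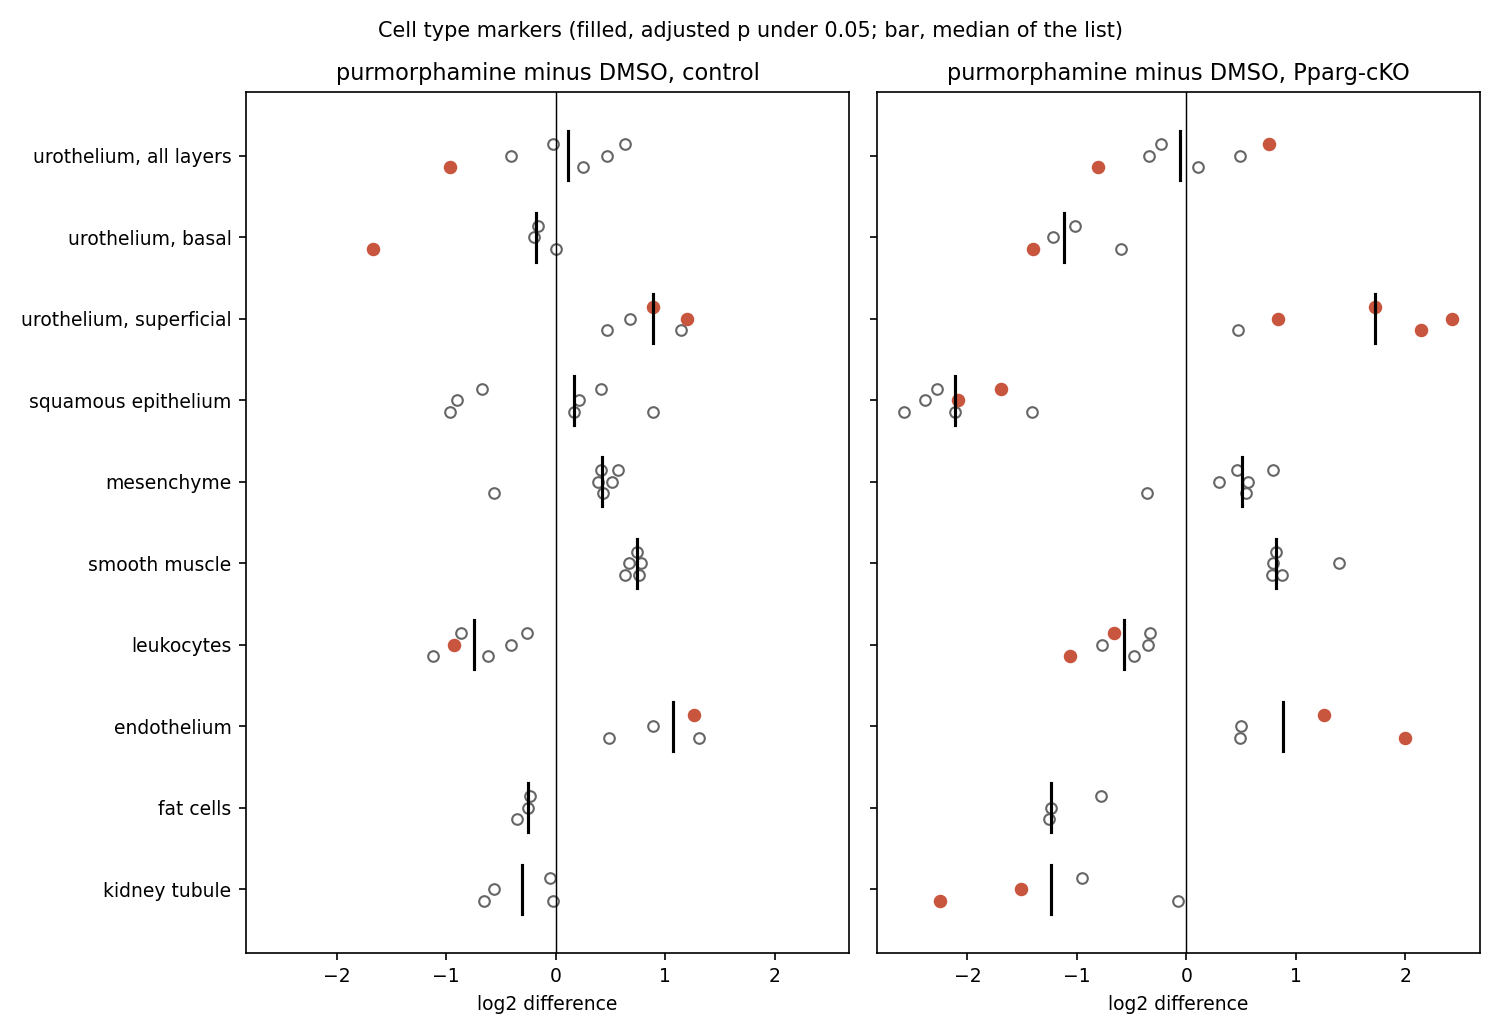
Differences in log2 intensity between purmorphamine and DMSO (x axis) for the markers of 10 cell types (y axis) in control (left) and *Pparg-cKO* ureters (right). Each circle is a marker gene, filled where the adjusted p was under 0.05, and bars are medians. Leukocyte and basal markers lie at or below 0 and superficial markers above 0 in both panels.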

How the data were processed

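RNA of pools of sex-sorted ureters was hybridized to 4 Agilent 2-colour arrays on 1 slide, each with the DMSO and the purmorphamine pool of a genotype and sex. The dyes were AlexaFluor555 for DMSO and AlexaFluor647 for purmorphamine on the male arrays, and the reverse on the female arrays. The deposited spot intensities were made by the authors' core unit with Agilent Feature Extraction (10.7.3.1 in the submitters' processing notes, 12.2.0.7 per the file headers), with mm9 as the annotation build. The deposited log10 ratios of red over green served to check the direction of the dyes. The value table deposited with the series holds a score, a signed fold change with 1 decimal whose normalization is not given in the sources used here, and it served as an alternative. Its log2 values had a median of 0 in each array and correlated with the ratios of processed signals at a Pearson's r between 0.995 and 0.998.

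Mean signals were background-corrected by normexp with an offset of 50 and loess-normalized within arrays, and channels were scaled between arrays by Aquantile. The 4 spots of a probe were averaged, outlier spots were left out, and 27064 probes of 20229 genes that were well above background in a group were tested, the brightest probe standing for a gene. Between 66.3% and 70.5% of spots per channel were well above background and 0 were saturated. The number of arrays limits the precision. Purmorphamine was tested on the ratios within arrays, and genotype, which always differed between arrays, by separate channels (intraspot correlation 0.068), in limma 3.58.1 (R 4.3.3, data.table version 1.17.8), with a threshold of 0.05 for the adjusted p. The methods' rule used the deposited processed intensities scaled to a 75th percentile of 1500 with a floor of 15. The scripts were tested on simulated data.

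The 10 genes, the gene lists and the tests were chosen with earlier results of these data known. Named are the 10 genes, genes that check the labels, genes of a list that were called (at most 4 per list and comparison, with *Etv5* added as the fifth ERK response gene in *Pparg-cKO* ureters so that the count is named in full), *Erbb4*, the marker genes and, for each called member, the 3 genes with the highest correlation. Uncalled neuregulins, *Nrg3* and the neighbors on chromosome 5 were named after their values were seen. Alternatives were the processed signals, quantile normalization, other filters on dim probes, keeping outlier spots, averaging probes, the replicate number as a term, leaving out an array, the deposited score values and other thresholds of the methods' rule. Sequences were taken from the array files and from RefSeq (GRCm38.p6).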

Additional observations from a re-analysis of the deposited data

Results flagged for a closer look

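*Egfr* was singled out because its genotype difference changed sign between the culture conditions. With DMSO, *Pparg-cKO* minus control was -0.06, below 0 between the male and between the female pools, and with purmorphamine it was 0.37, above 0 between both. The first minus the second was -0.43. The test of this difference, limma's interaction term, gave an adjusted p of 1.00 and an unadjusted p of 0.091.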

How the results depend on the processing

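In the purmorphamine comparisons, the calls depended on how the signals were processed and on the filter on dim probes. Genes called in *Pparg-cKO* ureters were 1037, against 0 with processed signals, 0 with the value table and 368 with no filter on dim probes, and 169 to 1145 when 1 array was left out. In control ureters they were 308, against 0, 0 and 13, and 0 to 682 with 1 array left out. Of the 10 EGF family genes, 2 were called in each genotype, against 0 and 0 with processed signals, 0 and 0 with the value table, and 1 (*Areg*) and 0 with no filter. With 1 array left out these counts were 2 to 3 in *Pparg-cKO* ureters and 0 to 2 in control ureters (1 without the male and 0 without the female control array). Genes called by genotype with DMSO were 796, against 503 with processed signals and 63 to 441 with 1 array left out, and with purmorphamine 633, against 224 and 18 to 348. The interaction had 0 calls, and 0 to 44 with 1 array left out (44 without the male *Pparg-cKO* array). By the methods' rule, 2 members met it between genotypes with purmorphamine, and 0 at a fold threshold of 2. Beyond what the alternatives change by construction, the cause was not tested.

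Control and *Pparg-cKO* pools with the same replicate number share sex and dye but no animals. Their deviations from the group means correlated at -0.17 with DMSO and 0.48 with purmorphamine. The main genotype tests did not pair the pools by number, so sex and dye stayed within the spread of these tests. The methods' rule and the differences between male pools and between female pools did pair by number. With the replicate block, genes called by genotype were 343 with DMSO and 157 with purmorphamine, and the members called remained *Ereg* and *Areg* in both purmorphamine comparisons. The block left *Nrg4* at an adjusted p of 0.0705 and 0.0822 and *Dusp4* at 0.299 and 0.319 in the genotype comparisons with DMSO and with purmorphamine.

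Of 724 alternative values of 66 results for single genes, 608 kept direction and call, 87 lost the call, 1 gained it and 28 changed sign, the last in 20 results that were not called. With processed signals, *Erbb3* by genotype with DMSO was 0.078 and *Tgfa* with purmorphamine in *Pparg-cKO* was 0.021. The other changes of sign came from leaving out 1 array. By genotype with DMSO, the values ran from -0.081 to 0.40 for *Areg*, -0.10 to 0.40 for *Egf*, -0.25 to 0.13 for *Egfr* and -0.23 to 0.22 for *Erbb3*. By genotype with purmorphamine, they ran from -2.07 to 0.0039 for *Ereg* and -0.21 to 0.31 for *Erbb3*. With purmorphamine in *Pparg-cKO* ureters, they ran from -0.072 to 0.071 for *Tgfa*, -0.16 to 0.031 for *Egf*, -0.12 to 0.19 for *Erbb2* and -0.16 to 0.37 for *Erbb3*. In control ureters, they ran from -0.027 to 0.23 for *Tgfa*, -0.20 to 0.12 for *Egfr*, -0.13 to 0.15 for *Erbb2* and -0.22 to 0.33 for *Erbb3*. For the interaction, they ran from -1.80 to 0.081 for *Ereg*, -0.050 to 0.39 for *Hbegf*, -0.23 to 0.027 for *Tgfa*, -0.37 to 0.60 for *Btc*, -0.13 to 0.18 for *Erbb2* and -0.23 to 0.33 for *Erbb3*.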
